A study of Mus musculus with 24 samples.

Results

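Cholesterol and fatty acid synthesis genes controlled by the sterol regulatory element binding proteins (SREBPs) were followed in ID8 P53 KO cells, a mouse ovarian cancer line. The set was a list of 33 gene symbols, matched by name to a table of 25229 genes, and all 33 were found and were among the 12941 genes that passed the filter on low counts. No measured value entered the rule that lists them, though the list was drawn up with earlier results of these data known. By role, 8 genes belong to the mevalonate pathway, 11 to the steps from squalene to cholesterol, 6 are regulators of SREBPs or carry sterols, and 8 serve fatty acid synthesis, desaturation and elongation.

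Poly(A) RNA was sequenced in 24 libraries, 6 in each of 4 groups kept for 6 days in the solvent DMSO, in cisplatin at 750 nM, in AU15330 at 2.5 uM, or in the combination of cisplatin and AU15330. Doses are those of the labels, and the study's methods give another cisplatin concentration for these cells. Cisplatin is a platinum drug that cross-links DNA. AU15330 is a proteolysis-targeting chimera (PROTAC) that sends SMARCA4, an ATPase with which SWI/SNF complexes remodel chromatin, and its paralog SMARCA2 to degradation, so the mRNA of its targets is no check of its action. All 4 groups shared the P53 KO genotype, the cell line and the growth medium, which held serum and an insulin supplement. The labels do not say whether the 6 replicates of a group were separate cultures, so p-values measure the spread between these libraries, which may be technical. In bulk RNA, fewer cells with a transcript and less of it per cell cannot be told apart.

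Sterol synthesis is controlled by its own product. SREBPs are made as membrane proteins of the endoplasmic reticulum, from which SCAP escorts them to the Golgi for cleavage when sterols are scarce, while INSIG proteins hold the complex back when sterols are plentiful. The released fragment enters the nucleus and binds sterol regulatory elements, often beside sites for NF-Y and Sp1, in the promoters of lipid synthesis genes. The product of Srebf2 acts mainly on sterol genes and that of Srebf1 mainly on fatty acid genes.

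Library totals ran from 17592588 to 25260009 counts. Of 9 markers of ovarian surface and mesothelial epithelium 8 were in the table and passed the filter. Their summed level was 3210 to 4910 CPM (counts scaled to a common library size) in DMSO and 4190 to 4990 in cisplatin. It was 1070 to 1190 in AU15330 and 1280 to 1460 in the combination. Marker sums were scaled by library totals alone. Levels of single genes that passed the filter also took in a factor for library composition, so they do not add up to the sums. The sum was lower wherever AU15330 was present and much of it in DMSO was Krt19, which went from 1400 to 2520 CPM in DMSO to 4.15 to 14.4 in AU15330. All 8 were lower with AU15330 without overlap. Upk3b (90.8-fold), Krt7 (34.7-fold), Upk1b (23.2-fold), Krt18 (5.31-fold) and Msln (4.48-fold) fell most after Krt19 (254-fold), while Krt8 and Wt1 fell 1.38-fold each and stayed at 221 to 266 and 490 to 711 CPM in AU15330. With cisplatin Upk3b (4.36-fold), Krt7 (3.72-fold), Upk1b (3.39-fold), Krt8 (1.62-fold), Krt18 (1.17-fold) and Wt1 (1.16-fold) rose. Krt19 (log2 fold change -0.35) and Msln (0.14) were not called changed. The part of these marker changes in the results on lipid genes was not tested. Leukocyte markers summed to at most 0.807 CPM and adipocyte markers to at most 0.242 CPM in any library. Of the endothelial markers only Pecam1 passed the filter, at 8.24 to 12.4 CPM in cisplatin and at most 4.23 in the other groups. Of the hepatocyte markers only Apoa1 passed, at 4.09 to 30.1 CPM in DMSO and at most 0.545 in the groups with AU15330.

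Within groups the libraries differed by replicate number. In 19 of the 33 genes the 2 highest DMSO libraries were replicates 2 and 3, against 13.5% of all tested genes, and in several genes replicate 1 was high with them. The labels name no batch. Values within replicates 1 to 3 and within replicates 4 to 6, a split chosen after the data were seen, are given beside the called results that lose their call in either set and for some other genes.

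Promoter sequence from RefSeq (build GRCm38.p6, 250 bases before and 50 after each start) was matched to 26 of the 33 genes, in 34 windows. The stretches before the start are shown for 4 genes on which the results turn, namely Hmgcs1 and Mvd of the mevalonate pathway, the regulator Insig1 and the fatty acid synthase Fasn. Capitals mark matches on either strand to TCACNCCAC (a form of the sterol regulatory element), CCAAT (the NF-Y motif) and GGGCGG (the GC box bound by Sp1). All are written in the direction of transcription. They lie at chr13:119690101-119690350 on the plus strand (Hmgcs1), chr8:122443423-122443672 on the minus strand (Mvd), chr5:28071162-28071362 on the plus strand (Insig1, leaving out 49 bases that lie inside the annotated gene) and chr11:120824548-120824797 on the minus strand (Fasn).
Hmgcs1: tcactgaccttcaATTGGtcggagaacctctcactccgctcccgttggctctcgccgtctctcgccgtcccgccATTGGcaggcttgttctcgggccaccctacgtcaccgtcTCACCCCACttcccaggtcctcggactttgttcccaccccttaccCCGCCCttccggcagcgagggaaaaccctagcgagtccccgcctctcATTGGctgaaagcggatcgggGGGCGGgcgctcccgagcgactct
Mvd: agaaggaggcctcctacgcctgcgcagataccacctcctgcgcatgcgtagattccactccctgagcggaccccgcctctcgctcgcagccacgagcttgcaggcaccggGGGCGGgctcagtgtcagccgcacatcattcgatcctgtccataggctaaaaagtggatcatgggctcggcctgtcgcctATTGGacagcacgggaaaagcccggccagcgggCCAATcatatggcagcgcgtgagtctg
Insig1: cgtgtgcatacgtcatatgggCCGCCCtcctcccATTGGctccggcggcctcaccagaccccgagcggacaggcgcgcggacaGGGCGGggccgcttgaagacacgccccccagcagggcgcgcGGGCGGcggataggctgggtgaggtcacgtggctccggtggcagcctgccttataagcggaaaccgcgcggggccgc
Fasn: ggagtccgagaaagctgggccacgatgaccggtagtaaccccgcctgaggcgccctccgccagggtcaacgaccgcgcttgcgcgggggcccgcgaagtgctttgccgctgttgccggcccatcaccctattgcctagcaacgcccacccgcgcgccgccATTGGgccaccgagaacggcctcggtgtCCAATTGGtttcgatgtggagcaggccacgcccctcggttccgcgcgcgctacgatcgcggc

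Of the 26 genes, Hmgcs1 alone had TCACNCCAC in its window, 137 bases before the start, where 1.24% of all 32851 promoter windows hold it. CCAAT was found in 22 of the 34 windows, from 21 genes, against 37.4% of all windows. GGGCGG was found in 25 of the 34 windows, also from 21 genes, against 35.7%. In Fasn a CCAAT on each strand overlaps the other. These are counts of letters and not of bound sites, and the element has other spellings that were not searched.

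Levels of different genes were compared as CPM per kilobase of annotated exon. In DMSO the highest mean was that of Scd2, a stearoyl-CoA desaturase, at 673, followed by Hmgcs1, the HMG-CoA synthase, at 203 and the polyunsaturated fatty acid desaturase Fads1 at 177. Fads2 (120) and Scd1 (114) came next. The lowest were the sterol reductase Tm7sf2 (2.12) and the isopentenyl diphosphate isomerase Idi1 (2.05).

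The CPM was summed over the genes of each role. These sums are carried by abundant genes, with Hmgcs1 (mean 933 CPM in DMSO) most of the mevalonate sum and Scd2 (3680) most of the fatty acid sum. The mevalonate genes summed to 917 to 1590 CPM in DMSO, 692 to 965 in cisplatin, 392 to 479 in AU15330 and 357 to 447 in the combination, so both groups with AU15330 lay below both without it. The squalene to cholesterol genes gave 981 to 1810, 810 to 1150, 522 to 622 and 535 to 658 CPM in the same order, and the regulators 1030 to 1500, 822 to 966, 630 to 713 and 623 to 684. The fatty acid genes instead gave 5340 to 8150 CPM in DMSO, 3270 to 3870 in cisplatin, 5860 to 7100 in AU15330 and 4210 to 5220 in the combination. Their sum was lowest in cisplatin, and AU15330 lay inside the DMSO range.

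**Figure D1:**
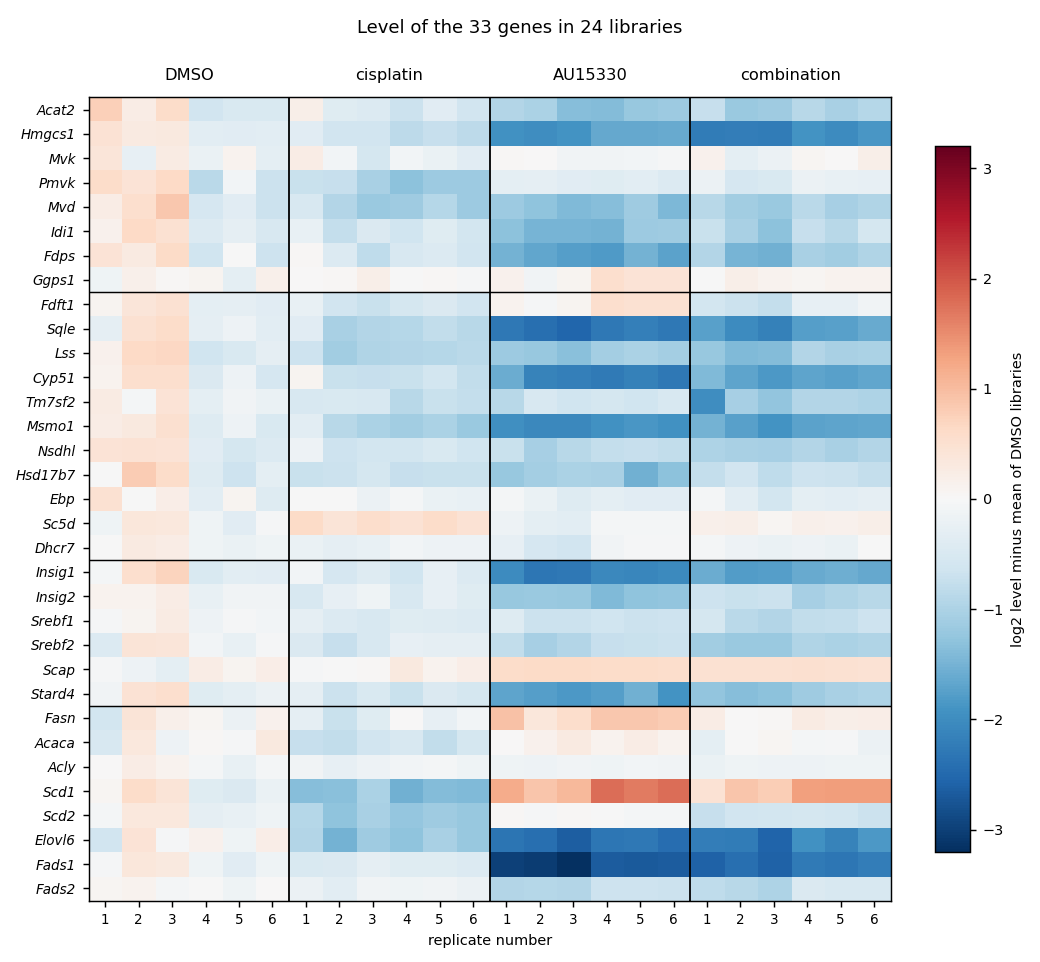
Log2 level of each of the 33 genes (rows, by role) in the 24 libraries (columns, by treatment and replicate number), minus the mean of the 6 DMSO libraries. Red is above and blue below that mean, and most sterol genes and Fads1 are blue in the AU15330 and combination columns while Scd1 is red there and blue in cisplatin.

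AU15330 alone lowered most sterol genes and split the fatty acid genes. In edgeR's quasi-likelihood test, with an adjusted p under 0.05 over all tested genes as the call, 23 of the 33 genes were lower than in DMSO, 4 were higher and 6 did not pass. Of all tested genes 73.4% were called in this comparison, 37.2% lower and 36.2% higher. The median log2 fold change was -0.85 over the 33 genes and -0.003 over all tested genes. AU15330 and DMSO libraries did not overlap in 22 of the 33 genes, 20 of them lower, against 49.9% of all tested genes. The size of the decline depended on the replicate set, since 31 of the 33 genes had the lower log2 fold change in replicates 1 to 3, where the median was -1.11, against -0.60 in replicates 4 to 6.

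In the mevalonate pathway 6 of 8 genes fell and 1 rose with AU15330. Hmgcs1, which makes HMG-CoA, was at 708 to 1240 CPM (median 911) in DMSO, 503 to 708 (568) in cisplatin, 230 to 296 (267) in AU15330 and 190 to 249 (211) in the combination. Every library with AU15330 lay below every library without it. AU15330 lowered the gene 3.53-fold against DMSO (log2 fold change -1.82 ± 0.137, adjusted p = 5.47e-12). Replicates 1 to 3 were higher than 4 to 6 in DMSO (1110 to 1240 against 708 to 715 CPM) and lower in AU15330 (230 to 242 against 292 to 296), and the log2 fold change was -2.29 in the first set and -1.29 in the second.

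Fdps, the farnesyl diphosphate synthase from which sterols and isoprenoids branch, was at 49.5 to 119 CPM (median 86.6) in DMSO, 45 to 81.1 (56.8) in cisplatin, 22.3 to 27.6 (24.4) in AU15330 and 26.9 to 40.9 (37.4) in the combination. AU15330 lay below DMSO and cisplatin with no overlap (log2 fold change -1.74 ± 0.183, adjusted p = 3.49e-09; -2.10 in replicates 1 to 3 and -1.28 in 4 to 6). Of its 70-base transcript stretches 23.9% occur in other genes too, among them Gm43738, which overlaps it on the same strand, so its counts are uncertain. Idi1, the mevalonate diphosphate decarboxylase Mvd and the thiolase Acat2 had log2 fold changes of -1.44, -1.42 and -1.28, again with no overlap. They were at -1.90, -1.86 and -1.64 in replicates 1 to 3, and in replicates 4 to 6 at -0.88, -0.79 and -0.74. Acat2 shares 35% of its stretches with Acat3, and Idi1 16.9% with predicted genes.

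The other mevalonate genes moved little or depended on a few libraries. Pmvk, the phosphomevalonate kinase, was called lower (-0.47 ± 0.186, adjusted p = 0.0255). In replicates 4 to 6 its value was 0.12 (adjusted p = 0.499), and the call was lost without DMSO replicate 1 (-0.35, adjusted p = 0.0958), 2 (-0.39, adjusted p = 0.0742) or 3 (-0.33, adjusted p = 0.113). Ggps1, which makes geranylgeranyl diphosphate for protein prenylation, was called higher (0.26 ± 0.0925, adjusted p = 0.0151). In replicates 1 to 3 it was 0.01, and the call was lost without DMSO replicate 5 (0.20, adjusted p = 0.0512) or AU15330 replicate 4 (0.19, adjusted p = 0.0599). Mvk, the mevalonate kinase, was at 15.7 to 25.7 CPM in DMSO and 17.9 to 20 in AU15330 and did not pass (-0.07, 95% interval -0.33 to 0.19).

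Among the squalene to cholesterol genes 9 of 11 fell and none rose with AU15330. Sqle, the squalene epoxidase and a control point of the pathway, was at 188 to 356 CPM (median 204) in DMSO, 117 to 184 (126) in cisplatin, 40.5 to 51.7 (48.4) in AU15330 and 53.3 to 77.5 (70.5) in the combination. No group overlapped another in this gene. The level with AU15330 was 5.24-fold lower than in DMSO (log2 fold change -2.39 ± 0.153, adjusted p = 2.08e-13).

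Of the enzymes that take methyl groups off the sterol ring, Cyp51 and Msmo1 fell most. Cyp51, the lanosterol demethylase, went from 182 to 389 CPM in DMSO to 54.4 to 88.2 in AU15330 (log2 fold change -2.16 ± 0.184, adjusted p = 6.51e-11), and the methyl sterol oxidase Msmo1 from 189 to 377 to 63.1 to 73.6 (-2.01 ± 0.149, adjusted p = 3.85e-12). The keto reductase Hsd17b7 (-1.29), the lanosterol synthase Lss (-1.24), the dehydrogenase Nsdhl (-0.89) and Tm7sf2 (-0.65) followed, each with no overlap between AU15330 and DMSO. Lss was at -1.74 in replicates 1 to 3 and -0.60 in 4 to 6, and Nsdhl at -1.33 and -0.33. Exons of Akap9 overlap Cyp51 on the other strand and Vps51 overlaps Tm7sf2 on the same strand. The library kit was directional, but the use of strand in counting was not stated. Exons of Arid4b overlap Ggps1 on the other strand, and exons of other genes overlap Hmgcs1, Idi1, Lss, Scap and Elovl6 there.

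The remaining squalene to cholesterol genes changed less. Ebp, the sterol isomerase, was called lower (-0.32 ± 0.114, adjusted p = 0.0145), but without DMSO replicate 1 its value was -0.20 (adjusted p = 0.0875), and in replicates 4 to 6 it was -0.15 (adjusted p = 0.24). Dhcr7, the last reductase of one route to cholesterol, was called lower (-0.26 ± 0.0963, adjusted p = 0.0171) and was 0.10 (adjusted p = 0.183) in replicates 4 to 6. Its call was lost without DMSO replicate 2 (-0.20, adjusted p = 0.0661) or 3 (-0.20, adjusted p = 0.0606) and without AU15330 replicate 2 (-0.21, adjusted p = 0.0516) or 3 (-0.20, adjusted p = 0.055). For both genes the libraries of the groups overlapped. The sterol desaturase Sc5d did not pass (-0.19, 95% interval -0.38 to 0.00), with -0.47 (adjusted p = 0.00616) in replicates 1 to 3 and 0.10 in 4 to 6. Fdft1, the squalene synthase, did not pass over all libraries (0.25 ± 0.146, adjusted p = 0.119), and its value was -0.28 in replicates 1 to 3 and 0.81 (adjusted p = 3.5e-08) in replicates 4 to 6.

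All 6 regulators and carriers were called with AU15330, 5 lower and 1 higher, with no overlap with DMSO. Insig1, which retains SREBPs in the endoplasmic reticulum and is a sensitive SREBP target, was at 103 to 237 CPM (median 125) in DMSO, 92.5 to 135 (107) in cisplatin, 28.7 to 35.8 (34.1) in AU15330 and 41.8 to 48.5 (46.4) in the combination. Cisplatin overlapped DMSO, and the groups with AU15330 lay below both and apart from each other. The log2 fold change with AU15330 was -2.21 ± 0.162, adjusted p = 3.19e-12. Its relative Insig2 was at 124 to 175 CPM (median 147) in DMSO, 103 to 134 (118) in cisplatin, 55.4 to 64.4 (61.9) in AU15330 and 70.3 to 93.4 (84.4) in the combination. It too was lowest in AU15330, with the combination between AU15330 and cisplatin (AU15330 against DMSO -1.27 ± 0.0871, adjusted p = 7.94e-13).

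The SREBP transcripts changed less than those of many of their targets. Srebf2 was at 365 to 662 CPM (median 476) in DMSO, 299 to 413 (384) in cisplatin, 237 to 306 (293) in AU15330 and 218 to 255 (237) in the combination. Cisplatin overlapped DMSO, and AU15330 did not (-0.85 ± 0.118, adjusted p = 4.01e-07). Srebf1 was at 198 to 264 CPM (median 216) in DMSO, 156 to 182 (166) in cisplatin, 138 to 166 (140) in AU15330 and 116 to 151 (131) in the combination. All 3 treated groups lay below DMSO (AU15330 against DMSO -0.63 ± 0.0727, adjusted p = 1.93e-08). The counts do not separate the transcripts of Srebf1 that start at different promoters, and exons of Rai1 overlap it on the other strand.

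Scap, the escort of SREBPs, rose. It was at 73.9 to 108 CPM (median 93.8) in DMSO, 90 to 114 (97.2) in cisplatin, 136 to 142 (139) in AU15330 and 128 to 131 (129) in the combination. Every library with AU15330 lay above every library without it (0.58 ± 0.0754, adjusted p = 1.48e-07). Stard4, which carries sterols between membranes, was at 53.3 to 101 CPM (median 62.9) in DMSO, 42.8 to 57.1 (48.6) in cisplatin, 18.3 to 23.8 (20.6) in AU15330 and 27.2 to 35.3 (30.4) in the combination. It fell with AU15330 to a level below all other groups (-1.80 ± 0.135, adjusted p = 5.01e-12).

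**Figure D2:**
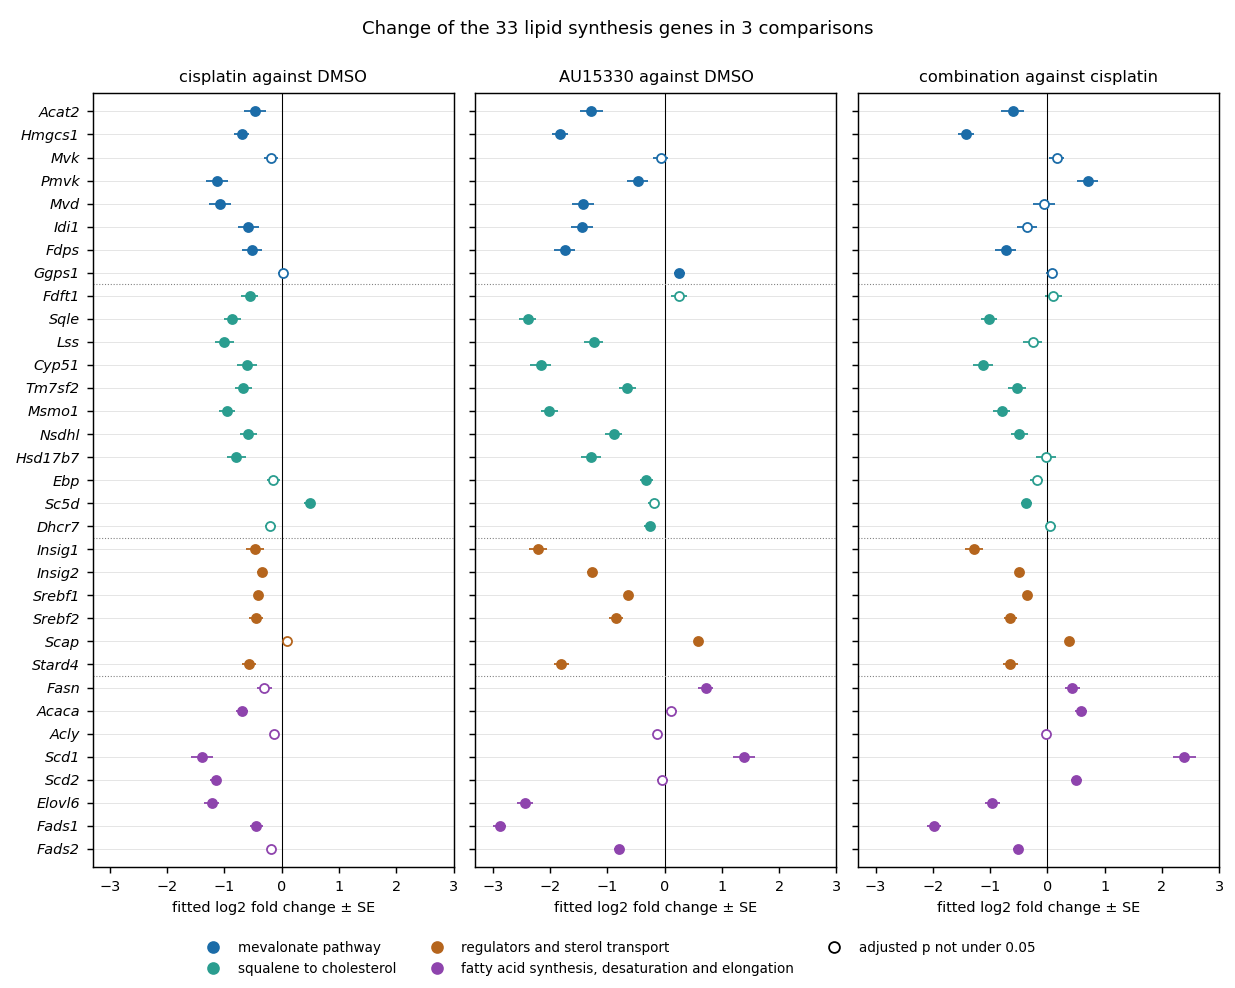
Fitted log2 fold change (horizontal axis, bars of 1 SE) of the 33 genes (rows, coloured by role) in 3 comparisons, with filled points for an adjusted p under 0.05 and open points otherwise. With AU15330 most sterol genes and regulators lie left of 0, and the fatty acid genes reach from Fads1 (-2.88) to Scd1 (1.38).

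The fatty acid genes gave the widest range with AU15330, with 3 lower, 2 higher and 3 that did not pass. Fads1, a desaturase in the synthesis of arachidonic acid, was at 651 to 1090 CPM (median 791) in DMSO, 598 to 691 (629) in cisplatin, 92.3 to 133 (118) in AU15330 and 140 to 182 (163) in the combination. The groups with AU15330 were far below the groups without it. The 7.36-fold lower level against DMSO (-2.88 ± 0.12, adjusted p = 2.85e-17) was the largest fitted change among the 33 genes in the 4 comparisons of groups. Elovl6, which elongates palmitate, was at 54.9 to 114 CPM (median 86.9) in DMSO, 29.2 to 43.6 (37.3) in cisplatin, 13.4 to 17.1 (16.2) in AU15330 and 14.1 to 23.6 (18.4) in the combination. Cisplatin lay below DMSO, and both groups with AU15330 below cisplatin (AU15330 against DMSO -2.44 ± 0.141, adjusted p = 2.33e-14). Fads2, a desaturase that acts before Fads1 in the same route, fell less (-0.80 ± 0.0853, adjusted p = 5.02e-09), also with no overlap.

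Scd1, a desaturase that makes oleate, rose. It was at 388 to 806 CPM (median 516) in DMSO, 186 to 266 (206) in cisplatin, 992 to 1860 (1460) in AU15330 and 743 to 1370 (1160) in the combination. DMSO lay above cisplatin and below AU15330 with no overlap (AU15330 against DMSO 1.38 ± 0.19, adjusted p = 3.79e-07). The log2 fold change was 0.67 in replicates 1 to 3 and 2.08 in replicates 4 to 6. Fasn, the fatty acid synthase, was at 326 to 663 CPM (median 533) in DMSO, 303 to 495 (411) in cisplatin, 639 to 945 (885) in AU15330 and 499 to 593 (570) in the combination. It rose with AU15330 (0.72 ± 0.132, adjusted p = 2.77e-05), with AU15330 replicate 2, at 639 CPM, inside the DMSO range.

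Scd2, the other abundant desaturase, was at 2990 to 4610 CPM (median 3400) in DMSO, 1490 to 1920 (1610) in cisplatin, 3440 to 3710 (3560) in AU15330 and 2170 to 2460 (2390) in the combination. AU15330 lay inside the DMSO range and the gene did not pass (-0.04, 95% interval -0.24 to 0.16), while in replicates 4 to 6 it was 0.15 (adjusted p = 0.0381). The acetyl-CoA carboxylase Acaca (0.12, 95% interval -0.09 to 0.33) and the ATP citrate lyase Acly (-0.13, 95% interval -0.26 to -0.01) did not pass either. Acaca shares 27.4% of its 70-base stretches with predicted genes, and Scd1 and Scd2 share 3.25% and 1.96% of theirs, chiefly within their family.

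**Figure D3:**
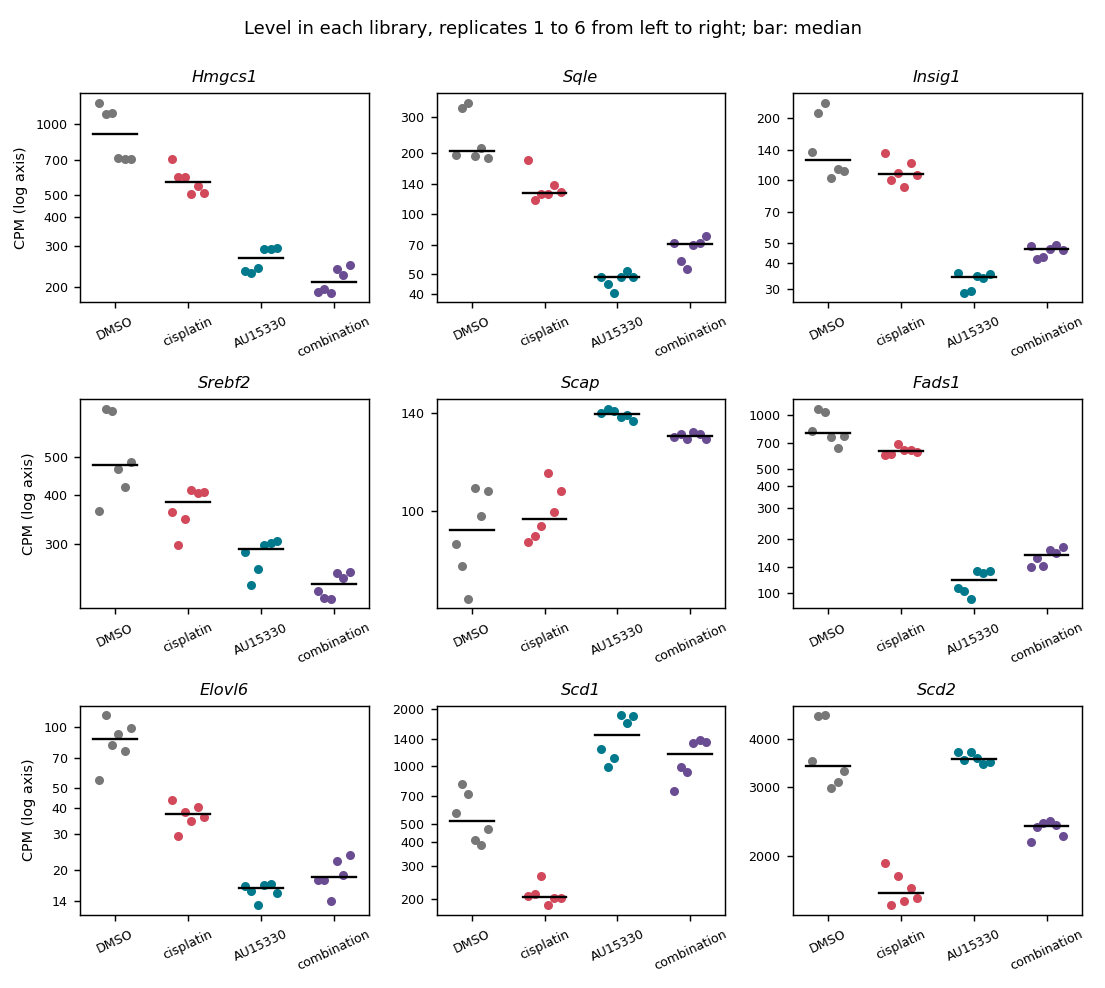
CPM on log axes in each of the 24 libraries for 9 genes, with replicates 1 to 6 of a group from left to right and a bar at the group median. Libraries with AU15330 form a low band for Hmgcs1, Sqle, Insig1, Fads1 and Elovl6 and a high band for Scap. For Scd1 combination replicate 1 (743 CPM) lies below DMSO replicate 2 (806 CPM), and Scd2 is lowest in cisplatin.

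Cisplatin alone lowered 24 of the 33 genes, raised 1 and left 8 that did not pass, where 51.7% of all tested genes were called, 25.7% lower and 26.0% higher. The median log2 fold change was -0.56, against -0.004 over all tested genes. Cisplatin and DMSO libraries did not overlap in 9 of the 33 genes, 8 of them lower, against 24% of all tested genes. The same 6 DMSO libraries serve here and in the comparison with AU15330, so the values of the comparisons are not independent.

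The levels of the desaturation and elongation genes are given above. Scd1 (-1.39 ± 0.19, adjusted p = 1.13e-06), Elovl6 (-1.22 ± 0.134, adjusted p = 3.17e-08) and Scd2 (-1.15 ± 0.0979, adjusted p = 3.22e-10) all fell without overlap. Their values were -1.61, -1.17 and -1.30 in replicates 1 to 3 and -1.10, -1.27 and -1.0 in replicates 4 to 6. Over all libraries Scd2 was close to the sterol gene Pmvk (-1.13), and in replicates 1 to 3 Elovl6 and Scd2 fell less than Mvd, Lss and Pmvk. Acaca (-0.69) also fell without overlap, and Fads1 (-0.44) with overlap. Fasn (-0.30, adjusted p = 0.056), Acly (-0.14, adjusted p = 0.0534) and Fads2 (-0.18, adjusted p = 0.0837) did not pass. In replicates 1 to 3 alone Acly (-0.30, adjusted p = 0.0213) and Fads2 (-0.26, adjusted p = 0.0443) were called lower. In replicates 4 to 6 they were at 0.01 and -0.11. Without replicate 1 of every group Fasn was called lower (-0.42, adjusted p = 0.00681).

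In the sterol branch 14 of 19 genes fell with cisplatin. The largest declines were those of Pmvk (-1.13), Mvd (-1.08), Lss (-1.0), Msmo1 (-0.95), Sqle (-0.86), Hsd17b7 (-0.79), Hmgcs1 (-0.70) and Tm7sf2 (-0.67). Of these, Lss, Sqle and Tm7sf2 had no overlap with DMSO. Their sizes and order depended on the replicate set, with Pmvk at -1.38 in replicates 1 to 3 and -0.72 in 4 to 6, Mvd at -1.42 and -0.55, Lss at -1.40 and -0.45, and Hsd17b7 at -1.17 and -0.27. Cyp51 (-0.60) and Fdft1 (-0.56) fell as well. Ggps1 (0.02), Mvk (-0.19), Ebp (-0.15) and Dhcr7 (-0.20) did not pass. Dhcr7 was called lower in replicates 1 to 3 alone (-0.42, adjusted p = 0.0109) and was at 0.02 in 4 to 6.

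Several of these calls rested on replicates 1 to 3. Over all libraries Acat2 (-0.46), Insig1 (-0.46), Idi1 (-0.58), Fdps (-0.52) and Nsdhl (-0.58) were called lower. In replicates 4 to 6 they were at -0.04 (adjusted p = 0.738), -0.05 (adjusted p = 0.626), -0.13 (adjusted p = 0.463), -0.13 (adjusted p = 0.479) and -0.14 (adjusted p = 0.106). Of the 33 genes 29 had the lower log2 fold change in replicates 1 to 3, where the median was -0.77, against -0.24 in replicates 4 to 6.

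Single libraries decided 3 of the calls with cisplatin. Without DMSO replicate 3, Insig1 was at -0.27 (adjusted p = 0.103), Fdps at -0.36 (adjusted p = 0.0892) and Acat2 at -0.32 (adjusted p = 0.18). Without DMSO replicate 2, Insig1 was at -0.33 (adjusted p = 0.0746) and Acat2 at -0.42 (adjusted p = 0.0973). Without DMSO replicate 1, Acat2 was at -0.27 (adjusted p = 0.223) and Fdps at -0.41 (adjusted p = 0.0622). Leaving out any of cisplatin replicates 2 to 6 also ended the call of Acat2, with adjusted p from 0.0635 to 0.099 and values from -0.46 to -0.41.

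Sc5d was the gene that rose with cisplatin. It was at 64.1 to 106 CPM (median 78.2) in DMSO, 110 to 126 (118) in cisplatin, 65.9 to 79.4 (76.3) in AU15330 and 87.1 to 93.6 (92.5) in the combination. Cisplatin lay above every other group (0.49 ± 0.0918, adjusted p = 7.92e-05), and in replicates 1 to 3 the difference from DMSO was 0.32 (adjusted p = 0.0683). Of the regulators Srebf2 (-0.45), Srebf1 (-0.41) and Insig2 (-0.35) fell, as did the carrier Stard4 (-0.57), and Scap did not pass (0.10, 95% interval -0.06 to 0.25).

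When AU15330 was added to cisplatin and compared with cisplatin alone, 17 of the 33 genes fell, 6 rose and 10 did not pass, where 68.1% of all tested genes were called, 32.7% lower and 35.4% higher. The median log2 fold change was -0.36, against 0.039 over all tested genes. The libraries did not overlap in 23 of the 33 genes, against 50.2% of all tested genes. Fads1 (-1.98 ± 0.116, adjusted p = 4.63e-14), Hmgcs1 (-1.42 ± 0.135, adjusted p = 7.41e-10) and Insig1 (-1.28 ± 0.157, adjusted p = 7.18e-08) fell most. Cyp51 (-1.13), Sqle (-1.02), Elovl6 (-0.96) and Msmo1 (-0.80) followed.

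The 6 genes that rose were Scd1, Pmvk, Acaca, Scd2, Fasn and Scap, 4 of them fatty acid genes, and none overlapped cisplatin. Scd1 was 5.25-fold higher in the combination than in cisplatin (2.39 ± 0.197, adjusted p = 4.02e-11). Pmvk was at 17.7 to 50.2 CPM (median 36.8) in DMSO, 12.9 to 19.7 (15) in cisplatin, 23.8 to 26.3 (25.3) in AU15330 and 22.2 to 28.5 (27.2) in the combination. Cisplatin had the lowest median, and the combination lay above it with no overlap (0.70 ± 0.188, adjusted p = 0.00185). Acaca was at 46.5 to 84.1 CPM (median 66.2) in DMSO, 38.2 to 46.4 (41.4) in cisplatin, 66.9 to 80.2 (72) in AU15330 and 53.4 to 69.2 (63.7) in the combination. It was likewise lowest in cisplatin (combination against cisplatin 0.58 ± 0.104, adjusted p = 2.38e-05). Scd2 (0.50), Fasn (0.43) and Scap (0.38) rose less, and Fasn did not pass in replicates 1 to 3 (0.51, adjusted p = 0.0664).

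Of the 10 genes that did not pass, 9 were sterol genes. Mvd was at 21 to 61.6 CPM (median 33.1) in DMSO, 14.9 to 23.9 (16.6) in cisplatin, 12.4 to 15.4 (13.6) in AU15330 and 14.9 to 18.7 (16.8) in the combination. The combination lay inside the range of cisplatin (-0.06, 95% interval -0.45 to 0.34). Hsd17b7 (-0.02, 95% interval -0.38 to 0.33), Lss (-0.26, 95% interval -0.60 to 0.09) and Idi1 (-0.36, 95% interval -0.73 to 0.01) did not pass either. In replicates 1 to 3 alone Lss (-0.48, adjusted p = 0.0182) and Idi1 (-0.57, adjusted p = 0.0405) were called lower, and in replicates 4 to 6 alone Fdft1 (0.31, adjusted p = 0.000806) and Mvk (0.28, adjusted p = 0.0426) were called higher. Tm7sf2 was called lower (-0.53), with -0.20 (adjusted p = 0.14) in replicates 4 to 6.

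The log2 fold change with AU15330 differed by the presence of cisplatin in 18 of the 33 genes, by the interaction term of the same fit, where 33.7% of all tested genes were called, 17.9% positive and 15.8% negative. All 18 differences were positive, meaning a higher value with cisplatin than without it, and the median was 0.54, against 0.006 over all tested genes. The median was 0.72 in replicates 1 to 3 and 0.40 in replicates 4 to 6, with the lower value in replicates 4 to 6 for 27 of the 33 genes. Elovl6 had the largest difference (1.48 ± 0.192, adjusted p = 1.76e-06), from -2.44 without to -0.96 with cisplatin. For Sqle it was 1.37 ± 0.208, adjusted p = 1.63e-05, from -2.39 to -1.02. For Mvd it was 1.36 ± 0.272, adjusted p = 0.000393, from -1.42 to -0.06, and the difference was 1.61 in replicates 1 to 3 and 0.87 in 4 to 6.

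A less negative value with cisplatin was also the form of the difference for 10 further genes. These were the sterol genes Hsd17b7 (1.27), Msmo1 (1.21), Idi1 (1.08), Cyp51 (1.02), Fdps (1.02) and Lss (0.98), the regulators Insig1 (0.93) and Insig2 (0.79), the carrier Stard4 (1.14), and Fads1 (0.90). Some of these differed by replicate set, such as Lss (1.26 in replicates 1 to 3 and 0.48 in 4 to 6) and Insig1 (1.23 and 0.47). Srebf1 (0.28, adjusted p = 0.0352) passed too, but not in replicates 1 to 3 (0.29, adjusted p = 0.314) or 4 to 6 (0.22, adjusted p = 0.06). Its call was also lost without DMSO replicate 1, 2 or 3, cisplatin replicate 3, 5 or 6, any of AU15330 replicates 2 to 6, or combination replicate 1 or 6, with values from 0.20 to 0.28 and adjusted p from 0.051 to 0.114. Hmgcs1 (0.40, adjusted p = 0.101) and Srebf2 (0.20, adjusted p = 0.378) did not pass.

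In Scd1, Acaca, Scd2 and Pmvk the positive difference took another form. Scd1 rose in both settings, by 1.38 without and 2.39 with cisplatin (difference 1.01 ± 0.265, adjusted p = 0.00447). Pmvk was called lower without (-0.47) and higher with cisplatin (0.70, difference 1.17 ± 0.264, adjusted p = 0.00126). Acaca (0.12 without, 0.58 with, difference 0.46, adjusted p = 0.0179) and Scd2 (-0.04 without, 0.50 with, difference 0.54, adjusted p = 0.00325) were called higher with cisplatin. In replicates 1 to 3 the differences of Acaca (0.40, adjusted p = 0.343) and Scd2 (0.61, adjusted p = 0.0501) did not pass. Other differences did not pass over all libraries but did in 1 replicate set. They were positive for Hmgcs1 (0.55), Nsdhl (0.72) and Dhcr7 (0.71) in replicates 1 to 3, where the other set gave 0.14, -0.10 and -0.12, and for Fads2 (0.26) in replicates 4 to 6, and negative for Fasn (-0.52), Fdft1 (-0.50), Sc5d (-0.47) and Ggps1 (-0.38) in replicates 4 to 6.

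**Figure D4:**
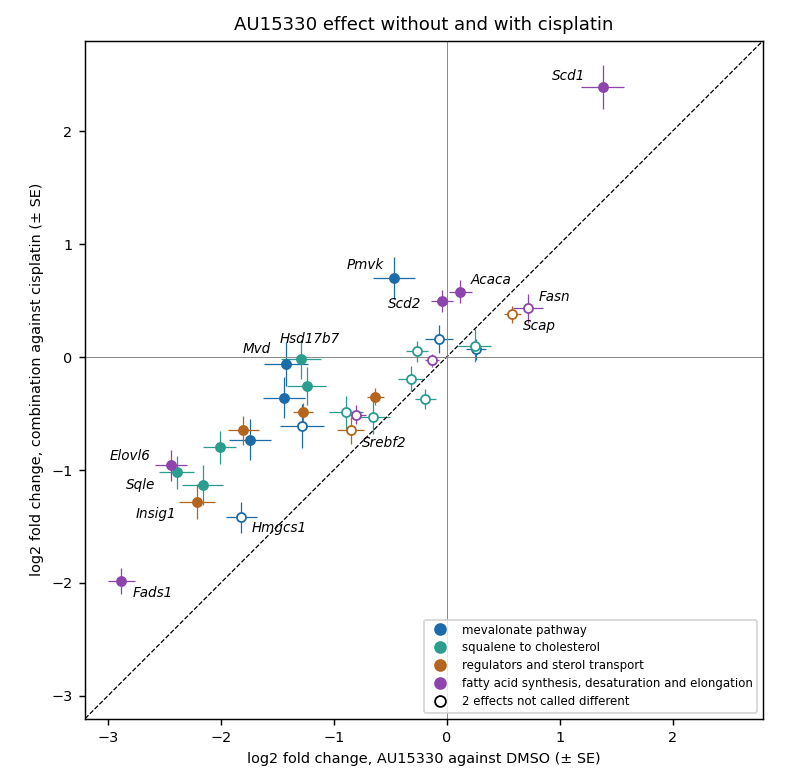
Log2 fold change of AU15330 against DMSO (horizontal) and of the combination against cisplatin (vertical) for the 33 genes, with bars of 1 SE and colour by role. The dashed line marks equal values, and the 18 filled points, with an adjusted p under 0.05 for the difference, all lie above it.

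The combination was also compared with AU15330 alone. In it 9 genes were higher, 4 were lower and 20 did not pass, where 41.7% of all tested genes were called, 22.2% higher and 19.5% lower. The median log2 fold change was 0.05, against 0.006 over all tested genes, and the libraries did not overlap in 12 genes, against 29.6% of all tested genes. Stard4 (0.57 ± 0.133, adjusted p = 0.0012), Sqle (0.51 ± 0.148, adjusted p = 0.00752) and Fdps (0.50 ± 0.181, adjusted p = 0.028) had the largest increases among those named by rule. Idi1 (0.50), Hsd17b7 (0.48), Insig1 (0.47), Fads1 (0.47), Insig2 (0.44) and Sc5d (0.31) were also higher. In replicates 1 to 3 alone only Fads1 and Insig2 of these 9 were called. There Stard4 was at 0.42 (adjusted p = 0.0773), Sqle at 0.42 (adjusted p = 0.204), Fdps at 0.32 (adjusted p = 0.307), Idi1 at 0.40 (adjusted p = 0.229), Hsd17b7 at 0.35 (adjusted p = 0.175), Insig1 at 0.46 (adjusted p = 0.0923) and Sc5d at 0.37 (adjusted p = 0.0546). Hmgcs1 (-0.30, adjusted p = 0.077) was lower in 6 of 6 same-numbered pairs and was called lower in replicates 1 to 3 (-0.32, adjusted p = 0.0336), in replicates 4 to 6 (-0.33, adjusted p = 0.000313), without replicate 1 (-0.33, adjusted p = 0.0458) and in the fit of these 2 groups alone (-0.29, adjusted p = 0.0113). Further genes that did not pass over all libraries did so in replicates 4 to 6 alone, where Cyp51 (0.51), Elovl6 (0.35), Mvd (0.32), Acat2 (0.29) and Fads2 (0.15) were higher and Scd1 (-0.45), Ggps1 (-0.40), Srebf2 (-0.30), Acaca (-0.28) and Nsdhl (-0.24) lower.

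Fdft1 had the largest decline in that comparison. It was at 80.1 to 144 CPM (median 97.5) in DMSO, 63.3 to 87.9 (68.9) in cisplatin, 99.7 to 150 (128) in AU15330 and 60.9 to 96.2 (77.2) in the combination. The combination lay below AU15330 with no overlap (-0.72 ± 0.146, adjusted p = 0.000326). Scd2 (-0.61 ± 0.097, adjusted p = 1.71e-05), Fasn (-0.59 ± 0.132, adjusted p = 0.000834) and Tm7sf2 (-0.54 ± 0.154, adjusted p = 0.00654) were lower too, of which Fasn did not pass in replicates 1 to 3 (-0.58, adjusted p = 0.08). Fdft1 shares 5.92% of its stretches with Gm6781, and exons of Ctsb overlap it on the other strand.

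These calls were the least stable, with 5 of 13 kept in every alternative. Replicate numbers were taken to pair the libraries of the combination and AU15330, though no label says so. A fit blocked on that number also called Cyp51 (0.44, adjusted p = 0.0141) and Acaca (-0.24, adjusted p = 0.0383) as changed. The unblocked values were 0.42 (adjusted p = 0.0601) for Cyp51 and -0.23 (adjusted p = 0.0703) for Acaca. Idi1 was lost without AU15330 replicate 2, 3 or 4 or combination replicate 1, 4 or 6 (0.43 to 0.47, adjusted p from 0.0634 to 0.0893). Fdps was lost without AU15330 replicate 3 or 4 or combination replicate 1, 4 or 6 (0.45 to 0.48, adjusted p from 0.0518 to 0.0669). Hsd17b7 was lost without AU15330 replicate 5 or 6 or combination replicate 2 (0.41 to 0.45, adjusted p from 0.056 to 0.0824).

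Genes around the pathway were counted in 4 lists, beside the share of all tested genes called in the same comparison. With AU15330 against DMSO, 2 of 15 tested genes of sterol uptake, efflux and storage rose and 9 fell, led by Lipa, the lysosomal acid lipase (1.05 ± 0.0936), and Tmem97, a sterol-responsive membrane protein (-2.25 ± 0.181). In SREBP processing and turnover 5 of 16 rose and 6 fell, led by the ubiquitin ligase Trim21 (2.82 ± 0.0959) and the COPII coat subunit Sec24d (-2.68 ± 0.204). In fatty acid supply, elongation and lipid assembly 4 of 22 rose and 15 fell, led by Acacb, the mitochondrial acetyl-CoA carboxylase (3.66 ± 0.162), and Acsl4, an acyl-CoA synthetase for polyunsaturated fatty acids (-2.41 ± 0.0889). In isoprenoid use after farnesyl diphosphate 0 of 14 rose and 4 fell, led by Nus1 of dolichol synthesis (-0.82 ± 0.056). The shares called in either direction were 73.3%, 68.8%, 86.4% and 28.6% in this order, against 73.4% of all tested genes, so the first and second lists lay near that background and the isoprenoid list below it.

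In the combination against cisplatin the lists gave 4 higher and 9 lower of 15, 7 and 4 of 16, 5 and 12 of 22, and 2 and 1 of 14, in the same order. That is 86.7%, 68.8%, 77.3% and 21.4% called, against 68.1% of all tested genes. The leading declines were those of the cholesterol acyltransferase Soat1 (-1.99 ± 0.19), Sec24d (-0.78 ± 0.194), Acsl4 (-2.19 ± 0.0881) and Nus1 (-0.56 ± 0.0559). The leading increases were those of the sterol-binding Osbp (0.89 ± 0.0929), Trim21 (1.20 ± 0.0895), Acacb (2.22 ± 0.15) and the farnesyltransferase subunit Fntb (0.81 ± 0.112). With cisplatin alone the counts were 2 and 7, 2 and 8, 4 and 9, and 1 and 9, or 60%, 62.5%, 59.1% and 71.4% called against 51.7% of all tested genes, with the largest declines in the lipoprotein receptor Vldlr (-1.26 ± 0.168), Sec24d (-1.28 ± 0.192), the acetyl-CoA synthetase Acss2 (-1.38 ± 0.216) and Fntb (-0.90 ± 0.112). The largest increases with cisplatin were those of Lipa (0.41 ± 0.0932), Trim21 (1.10 ± 0.0939), Acacb (1.04 ± 0.155) and Pdss1 of ubiquinone synthesis (1.09 ± 0.204).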

How the data were processed

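The authors deposited raw counts per gene for 48 columns, 2 sequencing lanes for each of 24 libraries. The submitters' processing notes name STAR 2.7.1a, DESeq2 1.36.0 and build mm10, and the counting tool and its use of strand are not given in the sources used here. The lanes of a library were summed, since they differed little more than by sampling noise (chi-square divided by its degrees of freedom was 1.36 to 1.46 for lanes and 2.3 to 122 for replicates). One edgeR 4.0.16 quasi-likelihood fit (R 4.3.3) covered the 24 libraries with TMM scaling and the default filter on low counts, and p-values were Benjamini-Hochberg adjusted over 12941 genes. The SE is the absolute log2 fold change divided by the square root of F. The fit was tested on simulated counts with the same spread setting for all genes and no difference between replicate numbers. That test does not cover the differences by replicate number seen here.

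The members and gene lists were chosen with earlier results of these data known. Genes named with levels were the 3 largest increases and declines per comparison among called members whose 6 differences between libraries of equal number had 1 sign, the 3 largest interactions and 5 regulators. Levels shown beyond these were chosen after their values were seen. Replicate numbers were taken to pair AU15330 with the combination, where the deviations from the group means correlated above 0.1 in 6 of 6 pairs (lowest r 0.101). In the other group pairs that held for 2 to 5 of 6. No label states the pairing, and only 4 of 6 AU15330 libraries correlated best with the combination library of their own number. Alternatives were other scalings, no filter, DESeq2 1.42.0, the replicate block, fits of the compared groups and leaving out libraries. Exon lengths, overlaps and shared 70-base stretches came from the mm10 annotation (GENCODE), and the promoter windows from RefSeq.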

Additional observations from a re-analysis of the deposited data

Results flagged for a closer look

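Of 132 groups of 6 libraries (each of the 33 genes in 4 groups) 15 had 1 library far from the others, where chance gives about 1 in 20, or 6.6. The value is the gap to the nearest library divided by the range of the group. In cisplatin, replicate 1 was the distant highest library for Acat2 (0.694), Mvd (0.654), Fdps (0.634), Sqle (0.688), Cyp51 (0.821), Msmo1 (0.699) and Nsdhl (0.732). Replicate 3 of cisplatin was highest for Ggps1 (0.691), Hsd17b7 (0.704) and Scd1 (0.652), and replicate 2 was lowest for Fads2 (0.644). In AU15330, replicate 1 was highest for Cyp51 (0.825) and Srebf1 (0.81). In the combination, replicate 1 was highest for Cyp51 (0.626) and replicate 3 lowest for Sc5d (0.627).

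The log2 fold change with AU15330 was higher in the presence of cisplatin than in its absence for 18 genes, by the interaction test of edgeR. The difference was 1.48 for Elovl6, 1.37 for Sqle, 1.36 for Mvd, 1.27 for Hsd17b7, 1.21 for Msmo1, 1.17 for Pmvk, 1.14 for Stard4, 1.08 for Idi1, 1.02 for Fdps and 1.02 for Cyp51. It was 1.01 for Scd1, 0.98 for Lss, 0.93 for Insig1, 0.90 for Fads1, 0.79 for Insig2, 0.54 for Scd2, 0.46 for Acaca and 0.28 for Srebf1.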

How the results depend on the processing

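Calls kept in every alternative were 19 of 25 for cisplatin against DMSO, 23 of 27 for AU15330 against DMSO, 21 of 23 for the combination against cisplatin, 5 of 13 for the combination against AU15330 and 15 of 18 for the interaction. Of 165 gene results 30 had another sign in some alternative, and 3 of these were called over all libraries or in that alternative, all for AU15330 against DMSO in replicates 4 to 6 alone, namely Pmvk (0.12), Dhcr7 (0.10) and Scd2 (0.15), and the cause was not tested. The numbers of genes higher and lower were followed on leaving out 1 library at a time or replicate 1 of every group. They were 1 to 1 and 21 to 27 for cisplatin, and 3 to 5 and 21 to 25 for AU15330. The combination gave 6 to 6 and 17 to 18 against cisplatin, and 6 to 10 and 4 to 6 against AU15330. The interaction gave 17 to 22 and 0 to 0. In replicates 1 to 3 alone the number higher fell from 1 to 0 for cisplatin and from 9 to 2 for the combination against AU15330. In replicates 4 to 6 alone that comparison had 14 higher and 10 lower, and the interaction had 4 lower. A fit of the combination and AU15330 groups only gave 9 lower in place of 4, and the cause was not tested.

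Scaling by total counts moved the median of all genes by 0.129 for AU15330 against DMSO (from -0.003 to 0.126) and by 0.065 for the combination against cisplatin (from 0.039 to 0.104). Under it Pmvk (-0.33, adjusted p = 0.103), Ebp (-0.18, adjusted p = 0.139) and Dhcr7 (-0.13, adjusted p = 0.192) lost their calls with AU15330, while Fdft1 (0.39, adjusted p = 0.016) and Acaca (0.25, adjusted p = 0.0315) were called higher. Acat2 with cisplatin (-0.38, adjusted p = 0.0994) and the Srebf1 interaction (0.21, adjusted p = 0.105) lost theirs.

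With the replicate number as a block, calls were gained with cisplatin for Fasn (-0.32) and Fads2 (-0.18), in the interaction for Acat2 (0.64) and Fads2 (0.29), and in the combination against AU15330 for Cyp51 (0.44) and Acaca (-0.24), and no other call changed. Over all genes the block raised the called genes from 6689 to 7354 for cisplatin, 9497 to 9966 for AU15330, 8813 to 9286 for the combination against cisplatin, 5394 to 6185 for the combination against AU15330 and 4361 to 5303 for the interaction. No label states that the numbers pair the libraries. For AU15330 and the combination the pairing was taken from correlations in these data, and in the other comparisons it is not shown.

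Leaving out 1 library also added calls. With cisplatin these were Fasn (-0.38 to -0.31, without DMSO replicate 1 or 5, cisplatin replicate 4 or 6 or AU15330 replicate 2), Acly (-0.19 to -0.16, without DMSO replicate 4, 5 or 6 or cisplatin replicate 5) and Dhcr7 (-0.25 and -0.24, without DMSO replicate 5 or 6). With AU15330 they were Acly (-0.18 to -0.14, without DMSO replicate 4, 5 or 6 or cisplatin replicate 1 or 2), Sc5d (-0.26 to -0.21, without DMSO replicate 1, 4 or 5) and Fdft1 (0.34 and 0.37, without DMSO replicate 2 or 3). In the combination they were Idi1 against cisplatin (-0.38, without DMSO replicate 2) and, against AU15330, Ggps1 (-0.23) or Scd1 (-0.47) without AU15330 replicate 2, Cyp51 (0.42 to 0.54, without DMSO replicate 6, cisplatin replicate 1 or AU15330 replicate 1), Srebf2 (-0.25, without DMSO replicate 1) and Acaca (-0.24, without DMSO replicate 1 or 2). In the interaction they were Acat2 (0.76 to 0.80), Hmgcs1 (0.47), Nsdhl (0.50), Dhcr7 (0.35 and 0.36) and Fads2 (0.32 to 0.35), in fits without DMSO replicate 4, 5 or 6, cisplatin replicate 1, AU15330 replicate 6 or combination replicate 2 or 3.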
